A study of Mus musculus with 365 samples.

Results

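Cathepsins are the main proteases of the lysosome. The 8 genes described here, Ctsa, Ctsb, Ctsc, Ctsd, Ctsh, Ctsl, Ctss and Ctsz, were taken by name from the 23427 genes of the count table, and all 8 were measured. They were followed across single cells of the EPLM, a class of bone marrow progenitor that can give rise to lymphoid and to myeloid cells, sorted from femurs of C57BL/6 Flt3Ltg mice. Such mice overexpress Flt3 ligand, the cytokine that drives the growth of Flt3-bearing progenitors. The cells comprised 213 TN (triple negative) cells on chips 1, 2 and 3 (75, 69 and 69 cells) and 152 Ly6D+ cells on chips 4, 5 and 6 (40, 60 and 52 cells) of the Fluidigm C1 capture system. Every mouse carried the transgene, their age is not stated, and each label names a pool of 2 mice without saying which pool filled which chip. TN cells are known from the study to lack Ly6D, SiglecH and CD11c at the surface, while the labels say only that they are triple negative.

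Cathepsins are made as inactive precursors, sorted to acidic compartments through mannose 6-phosphate receptors and activated there by cleavage. Most are cysteine proteases of the papain type (Ctsb, Ctsc, Ctsh, Ctsl, Ctss, Ctsz), while Ctsd is an aspartic protease and Ctsa a serine carboxypeptidase. Ctsd, Ctsl and Ctss are endopeptidases, Ctsh is mainly an aminopeptidase, Ctsz a carboxypeptidase, Ctsb an endopeptidase that also removes dipeptides from the carboxyl end, and Ctsc a dipeptidyl peptidase that activates the serine proteases of myeloid granules. In antigen-presenting cells Ctss trims the invariant chain of MHC class II, and in thymic epithelium Ctsl does so.

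Promoter windows (250 bases before to 50 bases after an annotated start) were found in RefSeq for 6 of the 8 genes, with 7 windows in all. Ctsb and Ctsh have no entry in that table. Both strands were searched for CACGTG (the E-box core), TCACGTGA (the core of the element bound by the lysosomal regulators Tfeb and Tfe3, which contains CACGTG), GAGGAAGT (a motif of the PU.1 type), the interferon-response type repeat (GAAA, any 2 bases, GAAA) and GGGCGG (a GC box). These letters occurred in 7.15%, 0.974%, 3.2%, 3.44% and 35.7% of all 32851 windows of this length. The windows of Ctss, Ctsz, Ctsd and Ctsa are shown because Ctss and Ctsz were lower on every Ly6D+ chip, Ctsd took a larger share of the cathepsin reads there, and Ctsa and Ctsd hold the TCACGTGA element. All are from GRCm38.p6, read 5' to 3' on the gene's strand, and capitals mark the first 4 of these motifs on either strand. GC boxes are left in lower case.

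Ctss, chr3:95526536-95526835, plus strand: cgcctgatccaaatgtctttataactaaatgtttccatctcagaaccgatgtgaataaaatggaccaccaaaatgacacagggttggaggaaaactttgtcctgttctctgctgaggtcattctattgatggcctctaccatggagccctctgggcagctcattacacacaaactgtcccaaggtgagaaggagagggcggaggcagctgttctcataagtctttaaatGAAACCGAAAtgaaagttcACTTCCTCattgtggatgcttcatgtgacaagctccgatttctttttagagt
Ctsz, chr2:174438990-174439289, minus strand: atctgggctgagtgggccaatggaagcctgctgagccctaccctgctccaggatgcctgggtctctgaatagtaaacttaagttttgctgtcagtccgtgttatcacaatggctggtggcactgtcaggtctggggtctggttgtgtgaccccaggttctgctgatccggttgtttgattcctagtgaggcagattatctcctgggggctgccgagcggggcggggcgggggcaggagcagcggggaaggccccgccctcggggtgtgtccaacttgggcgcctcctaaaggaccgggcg
Ctsd, chr7:142387778-142388077, minus strand: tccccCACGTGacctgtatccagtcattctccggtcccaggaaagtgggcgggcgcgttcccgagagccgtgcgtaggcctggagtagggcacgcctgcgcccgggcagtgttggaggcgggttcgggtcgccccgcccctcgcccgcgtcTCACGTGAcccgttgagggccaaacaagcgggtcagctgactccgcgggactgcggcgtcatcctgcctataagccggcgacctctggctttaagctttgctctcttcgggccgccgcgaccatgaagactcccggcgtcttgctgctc
Ctsa, chr2:164833523-164833822, plus strand: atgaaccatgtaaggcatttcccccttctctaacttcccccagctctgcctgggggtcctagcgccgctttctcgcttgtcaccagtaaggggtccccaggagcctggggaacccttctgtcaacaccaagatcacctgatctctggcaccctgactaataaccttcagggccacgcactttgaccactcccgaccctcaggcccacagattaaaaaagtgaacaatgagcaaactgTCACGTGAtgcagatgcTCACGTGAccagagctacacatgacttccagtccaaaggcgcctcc

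The Ctss window held the interferon-type repeat and, on the reverse strand, the PU.1-type motif, both close to the start. The Ctsd window held 1 TCACGTGA and a second CACGTG, and this window of Ctsa, the second of its 2, held 2 copies of TCACGTGA. The Ctsz window held 3 GC boxes and none of the other motifs. Ctsc held 1 PU.1-type motif and Ctsl 1 CACGTG. A match describes the letters only and is not evidence of binding.

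Depth ranged from 35734620 to 61415823 reads per chip and from 267852 to 1854600 reads per cell. Ly6d, which defines the sort, stood at 82.96, 167.7 and 283 CPM (reads scaled to library size, with TMM factors) on the TN chips and at 3046, 2860 and 2564 CPM on the Ly6D+ chips. Dntt, which encodes the terminal transferase of early lymphoid cells, read 555 to 967 CPM in TN and 3489 to 4944 CPM in Ly6D+. Of the markers of the other 2 antigens absent from TN cells, Siglech read 34.2 to 56.3 CPM on the TN chips and Itgax (CD11c) 5.55 to 28.4 CPM. Xist was detected in 41 cells of TN chip 2 and in no cell of the other chips. Each chip held 1 population, so chip and population cannot be told apart. In chip sums, fewer cells with a transcript and less transcript per cell also cannot be told apart, which is why shares of detecting cells are given too.

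Summed over the cells of each chip, Ctsh and Ctsz were the cathepsins whose levels differed most between the populations, and both were lower in Ly6D+. None of the 8 passed the edgeR quasi-likelihood test at a Benjamini-Hochberg adjusted p of 0.05 over 11797 genes, a threshold that 24 genes (0.203%) passed. Without adjustment, 3 members (Ctsh, Ctsz and Ctss) had p under 0.05 and were lower, beside 4.1% of all genes tested. In 4 members (Ctsb, Ctsh, Ctss and Ctsz) every Ly6D+ chip was below every TN chip, beside 7.75% of all genes. On the same sums DESeq2 called 2 of the 8, Ctsh and Ctsz, where 3.6% of genes were called. Limma-trend on chip means of log2(CPM + 1) called the same 2, where 2.76% of genes were called. The median log2 fold change of the 8, Ly6D+ over TN, was -0.50, beside 0.01 over all genes tested.

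Ctsh, the aminopeptidase, read 271, 239 and 341 CPM on TN chips 1 to 3 and 19.8, 119.2 and 8.79 CPM on Ly6D+ chips 4 to 6. Even the highest Ly6D+ chip, chip 5, lay below the lowest TN chip. The log2 fold change was -2.52 ± 0.85 (SE), a 5.75-fold lower level in Ly6D+, with an edgeR adjusted p of 0.407. Without Ly6D+ chip 5 it was -4.33 and passed edgeR (adjusted p = 0.0307). DESeq2 gave an adjusted p of 0.0143 and limma-trend 0.000284. Taking the top cell away from every chip moved the log2 fold change to -3.26, still short of an edgeR call (adjusted p = 0.293). The top cell held 12.4% to 21.7% of the Ctsh reads on the TN chips. It held 57.2% on Ly6D+ chip 4 and 54.8% on Ly6D+ chip 6. On Ly6D+ chip 5 a single cell held 48.4% of the Ctsh reads. That cell had 1342 detected genes, 4104 CPM of Ctsh, 3638 CPM of Ctsz, 3103 CPM of Ctsl and 19314 CPM of the MHC class II gene H2-Aa. It had 1292 CPM of Ly6d and no Dntt read.

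Ctsz, the carboxypeptidase, read 383, 328 and 687 CPM on the TN chips and 150, 225 and 66.6 CPM on the Ly6D+ chips. TN chip 3 was the highest and Ly6D+ chip 6 the lowest, and the populations did not overlap. The log2 fold change was -1.66 ± 0.46 (SE), a 3.17-fold lower level, with adjusted p of 0.287 in edgeR, 0.00907 in DESeq2 and 0.00723 in limma-trend. Reads at this locus may be shared, because Ctsz overlaps Nelfcd in the RefSeq annotation and the library did not mark the strand. Nelfcd reads came to 41.7% of those of Ctsz and exceeded them in 86 cells.

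Ctss, which trims the invariant chain, read 392, 355 and 615 CPM on the TN chips and 303, 347 and 227 CPM on the Ly6D+ chips. The populations did not overlap, by a small margin between TN chip 2 and Ly6D+ chip 5, and the log2 fold change was -0.63 ± 0.28 (SE, edgeR adjusted p = 0.595). Ctsb read 558, 747 and 682 CPM on the TN chips and 541, 556 and 316 CPM on the Ly6D+ chips. Here TN chip 1 and Ly6D+ chip 5 were almost level, and the log2 fold change was -0.49 ± 0.25 (SE, edgeR adjusted p = 0.682). Ctsb overlaps Fdft1 in the RefSeq annotation, so reads may be shared at this locus too. Fdft1 reads came to 6.50% of those of Ctsb and exceeded them in 34 cells.

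Ctsd, the aspartic protease, had the largest positive difference of the 8, with 156.3, 140.6 and 205.1 CPM on the TN chips and 358, 234 and 184.8 CPM on the Ly6D+ chips. Ly6D+ chip 6 fell below TN chip 3, so the populations overlapped, and the log2 fold change was 0.63 ± 0.30 (SE, edgeR adjusted p = 0.650). Ctsa, which also protects lysosomal sialidase and galactosidase in a complex, read 435, 319 and 451 CPM against 275, 402 and 268 CPM. Its chips overlapped, and the log2 fold change was -0.35 ± 0.25 (SE, edgeR adjusted p = 0.774).

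Ctsc, the activator of granule proteases, varied among the TN chips alone, at 64.3, 113.4 and 192.9 CPM, and read 115.4, 55.1 and 91.8 CPM on the Ly6D+ chips. Ctsl, an endopeptidase, read 45.9, 15.1 and 89.9 CPM in TN and 79.4, 68.2 and 21.2 CPM in Ly6D+. Both overlapped between populations, with edgeR adjusted p of 0.847 for Ctsc and 0.986 for Ctsl, and 1 cell held 27.9% to 63.9% of the Ctsl reads of a chip. The summed level of 15 interferon-response genes was 886, 825 and 2890 CPM on TN chips 1 to 3 and 3682, 6981 and 725 CPM on Ly6D+ chips 4 to 6. The 3 chips with the highest interferon-response sums were also the 3 with the highest Ctsl level. On Ly6D+ chip 5, which had the highest of these sums, 1 cell held 63.9% of the Ctsl reads. The part of the interferon response in the Ctsl level was not tested.

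**Figure D1:**
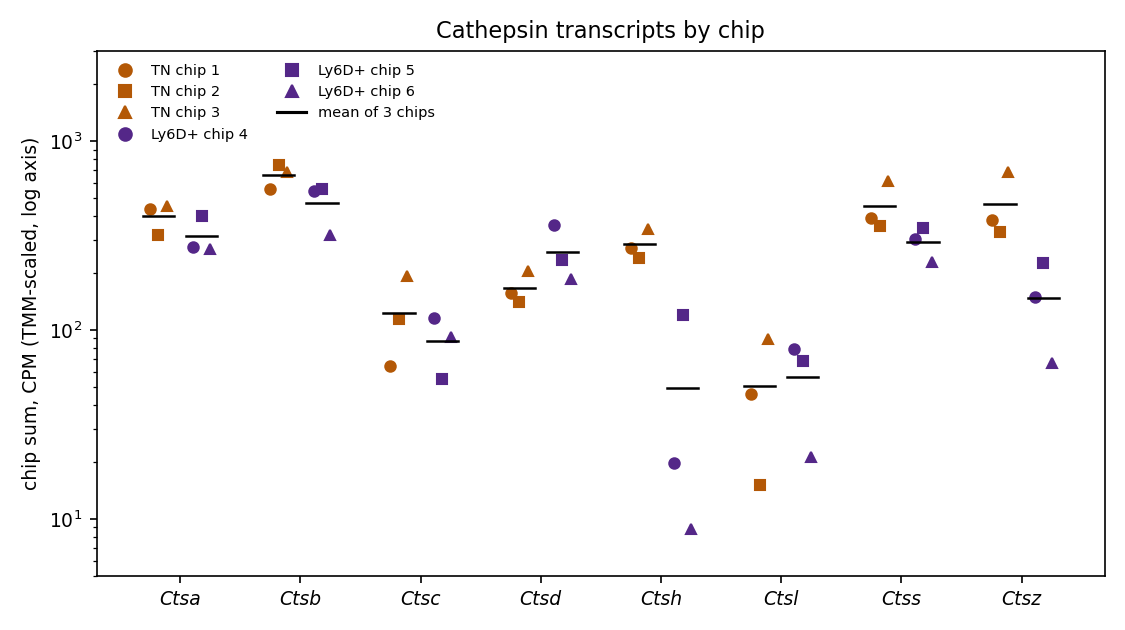
TMM-scaled CPM of the summed reads of each chip (log axis) for the 8 cathepsins, with 1 point per chip and a bar at the mean of 3 chips. All Ly6D+ chips lie below all TN chips for Ctsb, Ctsh, Ctss and Ctsz, and Ctsh spans 8.79 to 119.2 CPM among the Ly6D+ chips.

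To separate the number of cells holding a transcript from the amount per cell, each cell was thinned to 200000 reads and 5 reads (25 CPM) were required for detection. Ctsh was detected in 40%, 36.2% and 56.5% of TN cells on chips 1 to 3, and in 10%, 13.3% and 7.69% of Ly6D+ cells on chips 4 to 6. The exact 95% binomial interval, which covers counting error only, reached 24.6% at most on a Ly6D+ chip and began at 24.99% at the lowest on a TN chip. Ctsz was detected in 76%, 56.5% and 73.9% of TN cells and in 52.5%, 45% and 34.6% of Ly6D+ cells. For these 2 members alone of the 8 every Ly6D+ chip was below every TN chip, beside 5.93% of all genes tested.

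In cells that detected it, the median Ctsz level was 483 ± 123.5 CPM (SD, n = 3 chips) in TN and 176.7 ± 66 CPM in Ly6D+. So both the share of Ctsz-detecting cells and the level within them were lower in Ly6D+. For Ctsh the corresponding levels were 408 ± 68 and 245 ± 239 CPM, and the latter rest on 16 cells in all. The share of Ctsh-detecting cells thus did not overlap between the populations, while the level in those cells did.

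For the other members the shares of detecting cells overlapped between the populations. Ctss was the most widely detected, with 72.9% ± 5.9 of the cells in TN and 68.8% ± 8.6 in Ly6D+ (SD, n = 3 chips). Ctsb followed with 69.9% ± 4.1 and 66.1% ± 12.3, and Ctsa with 60.7% ± 3.2 and 58.1% ± 5.5. Ctsd had 41.2% ± 6.8 in TN and 50.7% ± 10.3 in Ly6D+. Ctsc, at 27.96% ± 12.4 and 27.9% ± 6.7, and Ctsl, at 13.7% ± 7.4 and 14.1% ± 3.1, were found in a minority of cells. Chips overlapped for all 6.

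**Figure D2:**
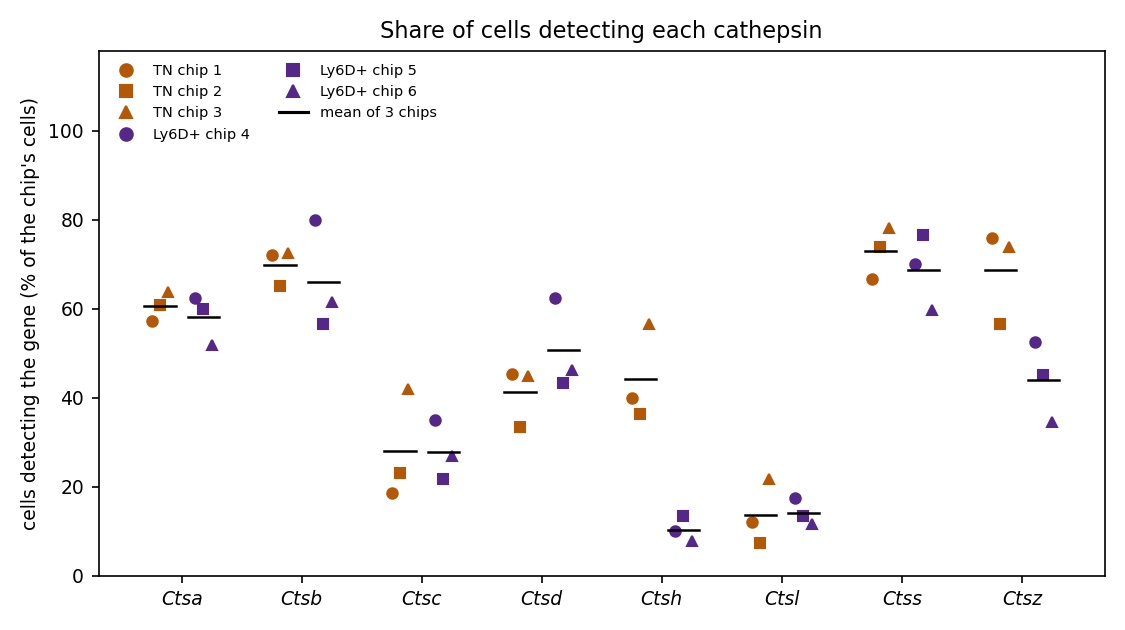
Share of the cells of each chip with 5 or more thinned reads of each cathepsin, with 1 point per chip and a bar at the mean of 3 chips. Ctsh was detected in 36.2% to 56.5% of cells on TN chips and in 7.69% to 13.3% on Ly6D+ chips, and Ctsz is the other member without overlap.

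**Figure D3:**
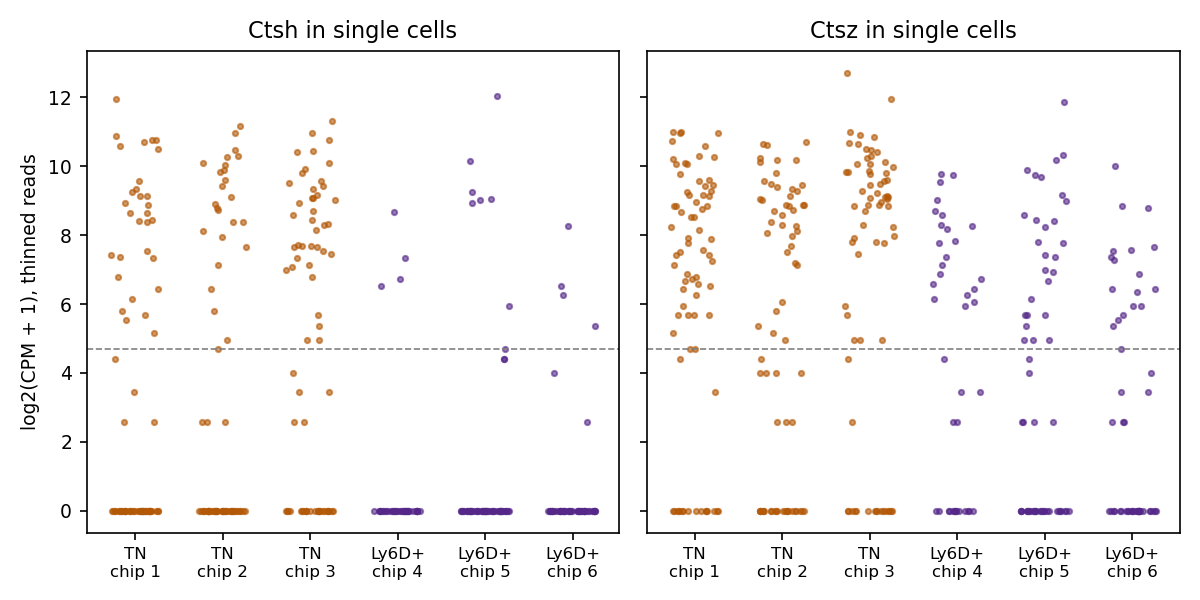
Level of Ctsh (left) and Ctsz (right) in every cell as log2(CPM + 1) of thinned reads, with 1 point per cell, cells spread sideways within a chip and the dashed line at 25 CPM, the detection limit. Ctsh is above the line in 94 TN and 16 Ly6D+ cells; the Ctsz points of the Ly6D+ chips that pass it number 66.

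A TN cell detected 3.99 ± 0.50 of the 8 cathepsins on average and a Ly6D+ cell 3.40 ± 0.46 (SD, n = 3 chips). The chip means were 3.88, 3.57 and 4.54 in TN and 3.90, 3.30 and 3.00 in Ly6D+, so the populations overlapped. Cells with 6 or more of the 8 numbered 49 in TN and 15 in Ly6D+, and 29 of the 49 were on TN chip 3. No cathepsin was detected in 4 TN and 7 Ly6D+ cells.

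Levels of different genes were compared as CPM per kb of the deposited gene length. In TN the order was Ctsz 335, Ctss 334, Ctsh 174.7, Ctsb 139.6, Ctsa 110.7, Ctsd 85.6, Ctsc 49.97 and Ctsl 25.5 CPM per kb (means of 3 chips). Only the step from Ctss to Ctsh separated neighbours without overlap of chips. In Ly6D+ the order was Ctss 215, Ctsd 132.6, Ctsz 105.7, Ctsb 99.2, Ctsa 86.9, Ctsc 35.4, Ctsh 30.4 and Ctsl 28.5 CPM per kb. There only the step from Ctsa to Ctsc was free of overlap. Ctsh thus stood in place 3 in TN and 7 in Ly6D+, and Ctsd in place 6 and 2. Without division by length Ctsh would stand in places 5 and 8, and Ctsd in places 6 and 4.

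The 8 genes together took 2305, 2257 and 3263 CPM on the TN chips and 1842, 2006 and 1185 CPM on the Ly6D+ chips, all lower. Within that sum, Ctsd made up 6.43% ± 0.30 of the cathepsin reads in TN and 15.6% ± 3.9 in Ly6D+ (SD, n = 3 chips). Ctsh made up 10.9% ± 0.7 and 2.59% ± 2.91, and Ctsz 17.4% ± 3.3 and 8.33% ± 2.81. The share of Ctss was 17.2% ± 1.6 in TN and 17.6% ± 1.4 in Ly6D+, although its CPM was lower in Ly6D+. These shares are parts of 1 sum, so a lower Ctsh or Ctsz share raises the others.

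Within a chip, Ctsb, Ctsh, Ctss and Ctsz tended to be high in the same cells. Spearman correlations of thinned reads were computed across the cells of each chip and averaged over the 6 chips, as a description, since cells share a chip and a depth. Of 28 pairs, 7 were positive on all 6 chips, and they included all 6 pairs among Ctsb, Ctsh, Ctss and Ctsz. With ranks adjusted for the number of detected genes 5 of the 7 kept this, and Ctsz with Ctsb and with Ctsh did not. Among cells of 1500 or more detected genes 5 also kept it, and Ctss with Ctsb and with Ctsh did not. In each of these cases 1 chip was below 0, at -0.042 to -0.0092. Among 4602 genes detected in 20% or more of cells, 8.41% were positive on all 6 chips with Ctsb, 6.04% with Ctsh, 5.52% with Ctss and 12.2% with Ctsz. The strongest pair was Ctsb with Ctsh, at a mean rho of 0.375 ± 0.026 (SD, n = 6 chips). On Ly6D+ chips 4, 5 and 6 only 4, 8 and 4 cells detected Ctsh, so every rho of Ctsh on those chips rests on few cells. Ctsh with Ctsz had 0.300 ± 0.199, made up of 0.453 ± 0.018 on the TN chips and 0.147 ± 0.171 on the Ly6D+ chips (SD, n = 3 chips each). The remaining 4 pairs of these genes had means of 0.237 to 0.270. The 22 pairs outside this set had means of -0.068 to 0.163, and only Ctsa with Ctsh (0.163) was positive on all 6 chips.

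**Figure D4:**
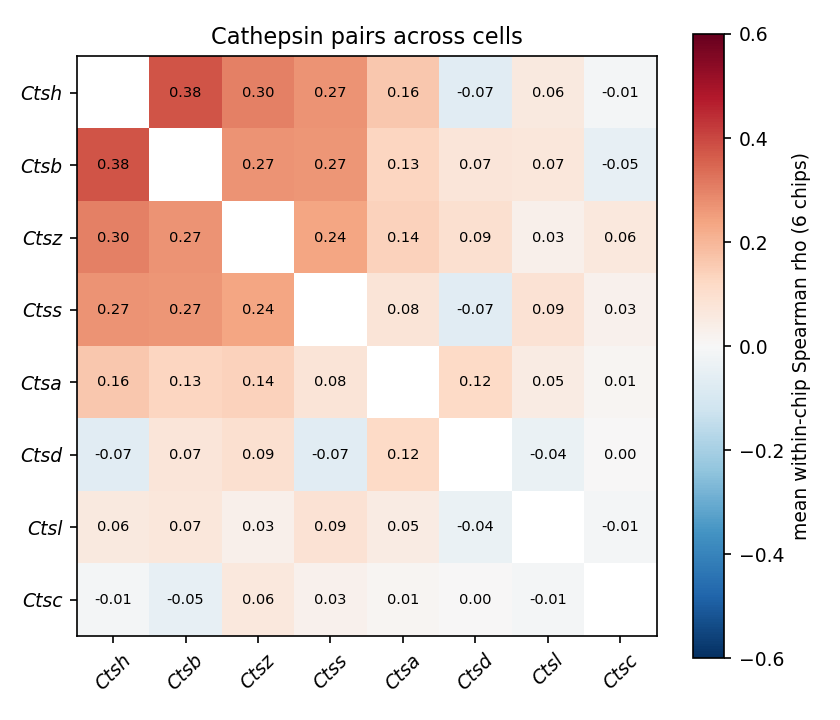
Mean within-chip Spearman rho over 6 chips for each pair of cathepsins across cells, with red for positive and blue for negative values. The block of Ctsh, Ctsb, Ctsz and Ctss has values of 0.237 to 0.375, and pairs with Ctsd, Ctsl or Ctsc stay near 0.

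Genes detected in 20% or more of cells and positive on all 6 chips with a cathepsin were considered. For each cathepsin the 3 of these with the highest mean rho over the 6 chips were listed. For Ctsh they were Irf8 (0.472 ± 0.053), a transcription factor of dendritic cells and monocytes, Lgals1 (0.454 ± 0.119), which encodes galectin-1, and Grn (0.441 ± 0.206), which encodes the lysosomal protein progranulin. For Ctsb they were Lgals1 (0.404), Ctsh (0.375) and Ms4a6c (0.367). For Ctsz they were Ly6c2 (0.346), a marker of monocyte progenitors, Ctsh (0.300) and the proteasome gene Psma7 (0.299). Ctsh was thus the gene second most like Ctsb, and second most like Ctsz, among 4600 genes ranked.

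For Ctss the nearest genes were Rnase6 (0.304), Plp2 (0.298) and Prickle3 (0.293). Ctsd was nearest to Nosip (0.297), Nup37 (0.294) and Tars (0.290), Ctsc to Lap3 (0.235), Nup160 (0.235) and Smc6 (0.223), and Ctsl to Hnrnpc (0.219), Ago2 (0.202) and H13 (0.196). None of these 9 genes is a cathepsin or a lysosomal list member. For Ctsa the nearest gene was Pltp (0.858 ± 0.043), followed by Fcer1g (0.273) and Rpn2 (0.246). Pltp overlaps Ctsa in the RefSeq annotation, its reads came to 3.28% of those of Ctsa, and no cell had Pltp reads without Ctsa reads, so the 2 cannot be told apart in unstranded reads.

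Each cathepsin was also correlated, within a chip, with the number of genes of each marker or pathway list detected in a cell. Only the direction on all 6 chips is described, and whether 2 cathepsins differed in it was not tested. The share of all genes with the same direction on all 6 chips was not computed for any list. The number of cathepsins positive with a list therefore has no background to be read against. The number of early lymphoid markers detected (9 genes, among them Dntt and Flt3) ran opposite to Ctsh on all 6 chips, with a mean rho of -0.310 ± 0.139 (SD, n = 6 chips). Ctsz accompanied myeloid progenitor markers (14 genes, among them Mpo and Csf1r), at 0.480 ± 0.079 on the TN chips and 0.213 ± 0.111 on the Ly6D+ chips. Ctss was positive on all 6 chips with 6 lists of cell-type markers and immune pathways: plasmacytoid dendritic markers (0.266), interferon-response genes (0.264), monocyte and macrophage markers (0.219), myeloid progenitor markers (0.208), conventional dendritic markers (0.207) and MHC class II pathway genes (0.175). Monocyte and macrophage markers were positive on all 6 also with Ctsb (0.198) and Ctsc (0.1496), and myeloid progenitor markers with Ctsl (0.099). Conventional dendritic markers were so with Ctsh (0.309 ± 0.187) and Ctsz (0.140). Plasmacytoid dendritic markers were so with every cathepsin but Ctsd, at 0.103 to 0.266. Adjusted for the number of genes detected in a cell, these means ran from 0.019 (Ctsc) to 0.264 (Ctss). This list shares Ly6c2 with the myeloid progenitor markers. G2/M genes, of dividing cells, were positive on all 6 chips with Ctsh (0.238), Ctsb (0.196) and Ctsd (0.141). Ctsd ran opposite to the MHC class II pathway genes on all 6 chips (-0.222 ± 0.109), and it was positive on all 6 with the number of genes detected in a cell (0.324 ± 0.132), as were Ctsz (0.255), Ctsa (0.213), Ctsc (0.194) and Ctss (0.073). Adjusted for that number, Ctsd had a mean rho of -0.067 with the G2/M genes.

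Some of these lists differed between the populations as well, and others overlapped. Plasmacytoid dendritic markers summed to 1152 to 1871 CPM on TN chips and 1407 to 2376 CPM on Ly6D+ chips. G2/M genes summed to 2398 to 3497 and 2522 to 2976 CPM, and the interferon-response sums given above also overlapped. Summed myeloid progenitor markers were 2034 to 4386 CPM in TN chips against 752 to 1011 CPM in Ly6D+ chips, and no Cebpe read was found. Monocyte and macrophage markers (12 genes) ranged from 493 to 692 and from 33.7 to 201.99 CPM, with the defining macrophage genes Mertk and C1qa at 0 throughout. Conventional dendritic markers (10 genes) ranged from 638 to 1643 and from 206.4 to 433 CPM, and early lymphoid markers from 1481 to 2197 and from 6951 to 7576 CPM. The conventional dendritic list includes Id2, which alone was detected in 45.5% of TN cells. On the TN chips a cell detected 0.907 to 0.986 members of that list on average. The part of the marker lists in the lower Ctsh and Ctsz was not tested.

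Among TN cells alone, cathepsins differed between cells with and without Dntt. Ctsh was detected in 15.97% ± 9.1 of cells with Dntt (65 of 213) and in 56.6% ± 10.1 of the rest (SD, n = 3 chips), and was lower in the former on all 3 chips. Ctsb (53.01% against 77.8%), Ctsz (53.1% against 75.8%) and Ctss (64.97% against 76.5%) were likewise lower on all 3 chips. The median number of detected genes was 2810 with Dntt and 2544 without, and its part in these differences was not tested. Among Ly6D+ cells with Dntt, which were all but 11 of them, Ctsh was detected in 6.68% ± 3.23 and Ctsz in 42.8% ± 9.7.

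TN cells with the granule genes Mpo or Prtn3 (49.3% of TN cells) detected Ctsz in 84.2% ± 7.7 and Ctsd in 56.9% ± 4.6, against 54.3% ± 11.6 and 26.03% ± 8.6 of the other cells. Ctsh differed less, at 49.8% ± 11.3 against 38.6% ± 9.9, and the Mpo or Prtn3 cells had more detected genes (medians of 2900 and 2303). TN cells with H2-Aa (55 cells) had a mean Ctss level of 837 CPM against 349 CPM in the others, although about the same share detected it (75.04% and 72.4%). Ctss was not alone in this. Mean levels were also higher in the H2-Aa cells for Ctsh (464.1 against 207.8 CPM) and Ctsb (855.3 against 596.4 CPM). Ctsl (85.9 against 44.4 CPM) and Ctsz (558 against 441.5 CPM) had higher means there too, while those of Ctsa, Ctsc and Ctsd were lower. The H2-Aa cells detected Ctsd less often on all 3 chips (24.3% ± 13.8 against 47.3% ± 3.2). The same held for Ctsa (41.7% against 67.2%), Ctsb (57.7% against 73.7%), Ctsl (8.42% against 15.6%) and Ctsz (60.3% against 71.6%). The medians of detected genes were 1853 and 2788.5, and their part in these differences was not tested.

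Among Ly6D+ cells, Ctsh was detected in 14.4% ± 2.9 of cells with Irf8 and in 1.85% ± 3.21 of the 48 cells without (SD, n = 3 chips). It was detected in 2.98% ± 2.59 of the 63 cells with Ebf1, a B-lineage factor, and in 15.6% ± 4.2 of the 89 without. Both differences held on all 3 Ly6D+ chips, and they rest on the 16 Ly6D+ cells that detected Ctsh. The cells with Irf8 had more detected genes (medians of 2811.5 and 2413.5). They also detected Ctsa (64.3% against 45.5%), Ctsb (70.6% against 55.8%), Ctsd (55.97% against 39.98%), Ctsl (17.4% against 6.85%) and Ctsz (48.1% against 35.6%) more often on all 3 chips. The cells with Ebf1 had medians of 2619 detected genes with and 2802 without, and Ctsz was also detected less often in them on all 3 chips (39.1% against 47.5%). The part of the number of detected genes in these differences was not tested.

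**Figure D5:**
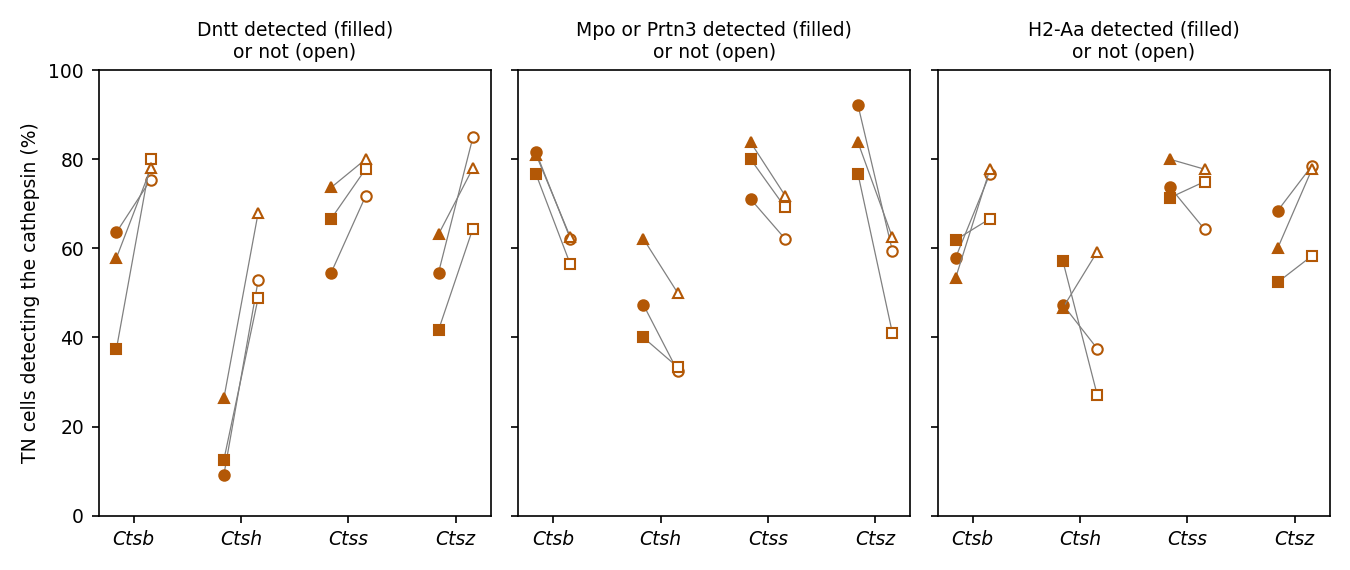
Share of TN cells detecting Ctsb, Ctsh, Ctss and Ctsz among cells with (filled) and without (open) Dntt, Mpo or Prtn3, and H2-Aa, with circles, squares and triangles for chips 1, 2 and 3 joined by chip. Cells with Dntt lie below cells without it for all 4 genes on all 3 chips, and cells with Mpo or Prtn3 lie above the others in this share.

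The rest of the lysosomal machinery was read from the same fit. Of the endogenous inhibitors and processing enzymes, Cst3, which encodes the secreted cysteine cathepsin inhibitor cystatin C, was the 1 of 7 tested that passed edgeR. It read 1824, 2204 and 1917 CPM in TN and 434, 411 and 388 CPM in Ly6D+, with -2.27 ± 0.16 (SE) for the log2 fold change (edgeR adjusted p = 0.00478). Cstb, the cytosolic inhibitor cystatin B, had a log2 fold change of -0.16 ± 0.37, and Lgmn, the legumain that cleaves cathepsin precursors, 0.19 ± 0.41. The inhibitor thus stood 4.82-fold lower in the population in which the 8 cathepsins together were also lower.

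Of 14 other cathepsin genes, 8 had no read and 4 were tested, none past the threshold. Ctsw, expressed in lymphocytes, read 6.07, 16.2 and 23.2 CPM in TN and 54.5, 47.02 and 46.9 CPM in Ly6D+ (log2 fold change 1.71 ± 0.61, edgeR adjusted p = 0.447). Ctsg, a granule serine protease that Ctsc activates, read 70.8, 92.8 and 195.96 CPM in TN and 24.7, 0 and 1.17 CPM in Ly6D+ (edgeR adjusted p = 0.622). Elane and Mpo, of the same granules, passed edgeR as lower (adjusted p = 0.0139 and 0.00478). The Elane call was lost without TN chip 1 or 3 or Ly6D+ chip 4 or 6 (edgeR adjusted p = 0.0849, 0.110, 0.0655 and 0.0649), and the Mpo call without Ly6D+ chip 6 (0.0609). Ctsc itself, as given above, overlapped between the populations.

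Among 37 other lysosomal hydrolases none passed edgeR, with a median log2 fold change of -0.53 and 24 members below 0. The extremes were Neu1, the sialidase held in a complex with Ctsa, at 1.70 ± 0.98, and Ifi30, the thiol reductase of antigen processing, at -2.34 ± 0.64. Psap, the saposin precursor, read 200.5, 177.15 and 176.2 CPM in TN and 68.7, 116.2 and 52.01 CPM in Ly6D+ (edgeR adjusted p = 0.287). Of 15 lysosomal membrane proteins (median -0.23), Npc1 had the highest value, 1.22 ± 0.59, and the transporter Slc15a3 the lowest, -2.56 ± 1.29, while Lamp1 had 0.05 ± 0.35.

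The 17 subunits of the proton pump that acidifies the lysosome had a median of -0.33, from 0.67 ± 0.55 for Atp6v0a2 to -1.79 ± 0.73 for Atp6v0d1. The 15 sorting genes had a median of -0.02, from 1.05 ± 1.12 for Igf2r to -2.11 ± 1.53 for Sort1. Of the 4 MiT/TFE factors, Tfeb read 0.057 to 14.3 CPM over all chips and Tfec had no read on a Ly6D+ chip and 0.43 to 20.5 CPM on the TN chips. Mitf had a log2 fold change of 1.28 ± 1.32 and read 21.1 CPM on Ly6D+ chip 4 and 0.38 to 7.30 CPM on the other chips, and Tfe3 had 0.61 ± 0.81. Over these 5 lists, 0 of 88 genes passed edgeR, and 15 had an unadjusted p under 0.05, beside 8.38% of all genes tested. In 20 of them (22.7%) every Ly6D+ chip was lower, beside the 7.75% given above, and in 2 (among them Gaa) every Ly6D+ chip was higher, beside 7.64%. DESeq2 called 7 of them, all lower in Ly6D+, among them Hexa, Asah1, Psap, Ifi30, Atp6v0e and Tfec. Limma-trend called 4, also lower (Hexa, Asah1, Ifi30 and Cd68). Over all genes these tools called 3.6% and 2.76%.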

How the data were processed

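Single cells were captured on Fluidigm C1 chips, and full-length cDNA was made with a SMARTer kit and turned into Nextera XT libraries, per the labels' protocols. Such libraries carry no molecular identifiers and no strand. The authors deposited raw read counts per gene and cell, with a gene length column that was used as deposited. Per the series' design text, cells needed at least 60% of reads mapped and at least 800 detected genes, which took 232 TN and 178 Ly6D+ captured cells to 213 and 152. Per the submitters' processing notes, reads refer to build mm9 and R 3.2.0 took part. Aligner, counter, annotation and strandedness of counting: not given in the sources used here. Symbols came by Entrez identifier from RefSeq (GRCm38.p6) for 23334 of 23427 genes, and that build was used for names, neighbouring genes and promoter windows only.

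Counts were summed per chip and tested with edgeR 4.0.16 (quasi-likelihood F-test, TMM, filterByExpr) in R 4.3.3, with Benjamini-Hochberg adjustment over 11797 genes. The standard error (SE) was taken as the size of the log2 fold change divided by the root of F. DESeq2 1.42.0 and limma-trend (limma 3.58.1) were alternatives, as were other size factors, no filter, thinned cells, and leaving out chips or kinds of cells. The replicate was the chip (n = 3 per population). The labels do not say that chips came from separate mice, so the p-values reflect differences among chips that may be technical. Shares of cells and Spearman correlations used cells thinned to 200000 reads (detection at 5 or more). No doublet caller was run. Tested on simulated data with 200 changed genes among 11797, 3 times, the edgeR fit for Ly6D+ against TN recovered 1.3% of 2-fold and 20% of 4-fold changes. The 8 genes, the 19 gene lists and the tests were chosen with earlier results of these data known. Named genes were the 8 cathepsins, up to 3 called members and both extremes of each list described, and a fixed set of markers. The 3 genes most correlated with each cathepsin, under the filters given above, were also named. Other genes in the text were named after their values were seen. The values of 2 lysosomal genes are not reported here.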

Additional observations from a re-analysis of the deposited data

Results flagged for a closer look

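Of all relations of a cathepsin with a list of genes, a second cathepsin or the number of detected genes, 3 had the same sign on every TN chip and the opposite sign on every Ly6D+ chip, and none of these differences was tested. Ctsl had a mean within-chip rho with conventional dendritic markers of -0.130 in TN and 0.155 in Ly6D+. Ctsd had 0.247 with early lymphoid markers in TN and -0.081 in Ly6D+. Ctsa had 0.091 with B-lineage markers in TN and -0.078 in Ly6D+.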

How the results depend on the processing

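With 3 chips per population and few calls in simulated 2-fold changes, a missing edgeR call says little about a change of that size. Cell reads carry no molecular identifiers, and 1 cell could hold most reads of a low gene such as Ctsl. All but 10 of the recomputed cathepsin fold changes kept their direction and their side of the threshold. All 40 recomputed list medians kept their direction. The 80 recomputed differences in the share of detecting cells moved by no more than 1 SD of the chips, but 11 changed sign (5 for Ctsc, 3 for Ctsl and 1 each for Ctsa, Ctsb and Ctss), and none did for Ctsd, Ctsh and Ctsz. Of 7 pairs of cathepsins positive on all 6 chips, 5 stayed so in each of 2 alternatives. The number of cathepsins called was 0, but 2 in both DESeq2 and limma-trend and 0 to 1 on leaving out each chip in turn, with the 1 being Ctsh without Ly6D+ chip 5. Ctsh had a log2 fold change of -2.52 in DESeq2 and -3.03 in limma-trend and ranged from -4.33 to -2.04 on leaving out chips. Ctsz had -1.66 and -2.43 and ranged from -2.12 to -1.29. Ctsl turned from 0.16 to -0.34 without cells of under 1500 detected genes and to -0.084 without the top cell of each chip, and ranged from -0.27 to 0.87 on leaving out chips. The call of Cst3 held in all alternatives run. Ctsl was negative without TN chip 2, Ly6D+ chip 4 or Ly6D+ chip 5, and the cause was not tested. Of the 88 genes in the lysosome lists, 0 were called by edgeR, 7 by DESeq2 and 4 by limma-trend. Without division by length, 3 of the 8 cathepsins kept their place in the TN order and 1 (Ctsc) in the Ly6D+ order. No paired analysis was possible because TN chips 1 to 3 and Ly6D+ chips 4 to 6 share no number.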
